A study of Mus musculus with 2 samples.

Results

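The genes described here are those of respiratory complex I and its assembly, taken as every gene on the array whose symbol starts with Nduf. The rule found 46 genes, read by 54 probes, of 20659 named genes on the array. It used the names and no measured value. The array measured RNA from RAW264.7 cells, a macrophage-like line derived from the ascites of a tumour that Abelson murine leukemia virus induced in an adult male BALB/c mouse. The cells received vehicle or IR-61, a lipophilic cationic heptamethine cyanine dye that fluoresces in the near infrared and collects in mitochondria, and RNA was taken after 24 h. Both groups were cultured alike in DMEM with heat-inactivated fetal bovine serum, and neither carried another agent or allele. Each group was a single 1-colour Agilent array, so no difference below has a replicate check and none was tested; a virus-transformed line also limits both groups as a model of tissue macrophages.

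Complex I, NADH:ubiquinone oxidoreductase, takes electrons from NADH at the tip of its matrix arm, passes them along iron-sulfur clusters to ubiquinone, and pumps protons through its membrane arm. Its core subunits carry the catalysis and are shared with bacteria; some are encoded in the nucleus (such as Ndufv1, Ndufv2 and several Ndufs genes) and the others in mitochondrial DNA. Supernumerary subunits surround this core and stabilise it, and assembly factors help to build the complex without remaining in it. In macrophages, complex I is of interest because electron flow through the respiratory chain, and the reactive oxygen species made there, change with inflammatory activation. The comparison asked whether the RNA of these genes differed between cells given IR-61 and cells given vehicle.

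The Nduf genes sat close together and close to the array as a whole. No member differed by 2-fold between the arrays, where 3.38% of the 16885 genes measured on both arrays did (1.39% lower and 1.99% higher with IR-61). The log2 difference, IR-61 minus vehicle, had a median of 0.08 over the 46 members and ran from -0.76 for Ndufa10 to 0.60 for Ndufaf8. The median over all measured genes was 0.10. A difference within 0.25 of 0 was found in 35 members, which is 76.1%, against 48.7% of all measured genes. At a limit of 1.5-fold, which 15.5% of all measured genes passed, 4 members passed, among them Ndufa10 and Ndufaf7, lower with IR-61, and Ndufaf8, higher. The share was 8.7% of the members, and 5.69% of all measured genes were lower and 9.79% higher by this limit.

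These differences are on the scale of the log2 processed signal (the spot's intensity after background subtraction) minus the 75th percentile of its array, here called the scaled signal. A gene was measured where its probe was well above background on both arrays, which held for all 46 members. The scaling mattered because the array of IR-61-treated cells was brighter: its 75th percentile was 10.79 on the log2 scale, against 10.30 on the vehicle array. Before scaling, 42 of the 46 members gave a higher signal with IR-61, and the 4 that gave a lower one included Ndufa10, Ndufaf7 and Ndufs8. After scaling, 31 members lay above 0 and 15 below, and 28 lay below the median of all measured genes and 18 above it, a split that turned to 11 and 35 under a normexp background correction. In RNA from a whole culture, fewer cells and less RNA per cell cannot be told apart.

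The only error these arrays allow is the spread between spots of 1 probe on 1 array, and it leaves out the spread between cultures, labelling reactions and arrays. The array held 399 probes printed 10 times, none of them an Nduf probe. The spread was read from those well above background on the array in question. For probes with a log2 signal over 10, the SD between spots was 0.070 with vehicle (144 probes) and 0.063 with IR-61 (150 probes). These give a difference an expected SD of 0.094. Farther than 2 such SDs from the median of all genes lay 37.1% of all measured genes and 11 of the 46 members, or 23.9%. Of these members, 7 were lower (15.2%, against 19.9% of all measured genes) and 4 were higher (8.7%, against 17.2%). The limit is wider for dim probes, so the share depends on brightness. Of the 7505 genes with a mean log2 signal over 10, 2216 were lower and 2098 higher beyond it. Among the 43 members over that level, 6 were lower and 4 higher. A difference beyond this limit exceeded the scatter of spots and was not tested against biological replicates.

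As a check of the cells, 6 macrophage marker genes were on the array and all were well above background, with processed signals from 1001.8 to 95035.9 with vehicle and from 789.9 to 149992.1 with IR-61. Their summed signal was 191318.4 with vehicle and 367225.3 with IR-61. The sums given here are of unscaled signals, so the brighter array and the brightest probes weigh most in them. After scaling, the macrophage markers did not move together. The log2 differences were 1.03 for Adgre1, 0.99 for Fcgr1, 0.65 for Itgam, 0.06 for Csf1r, -0.18 for Lyz2 and -0.83 for Spi1. All 4 fibroblast marker genes were also well above background and summed to 59578.9 with vehicle and 104498.6 with IR-61. The 4 B cell markers (617.5 and 555.2 in sum) and 3 T cell markers (755.3 and 1057.7) were listed well above background too, at signals of at most 957.0. Epithelial markers were well above background on both arrays in 2 of 4 genes and adipocyte markers in 1 of 3, while 3 of 3 neutrophil markers were (11921.2 and 20148.8 in sum). The part of these genes, or of the brighter array, in the Nduf values was not tested.

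**Figure D1:**
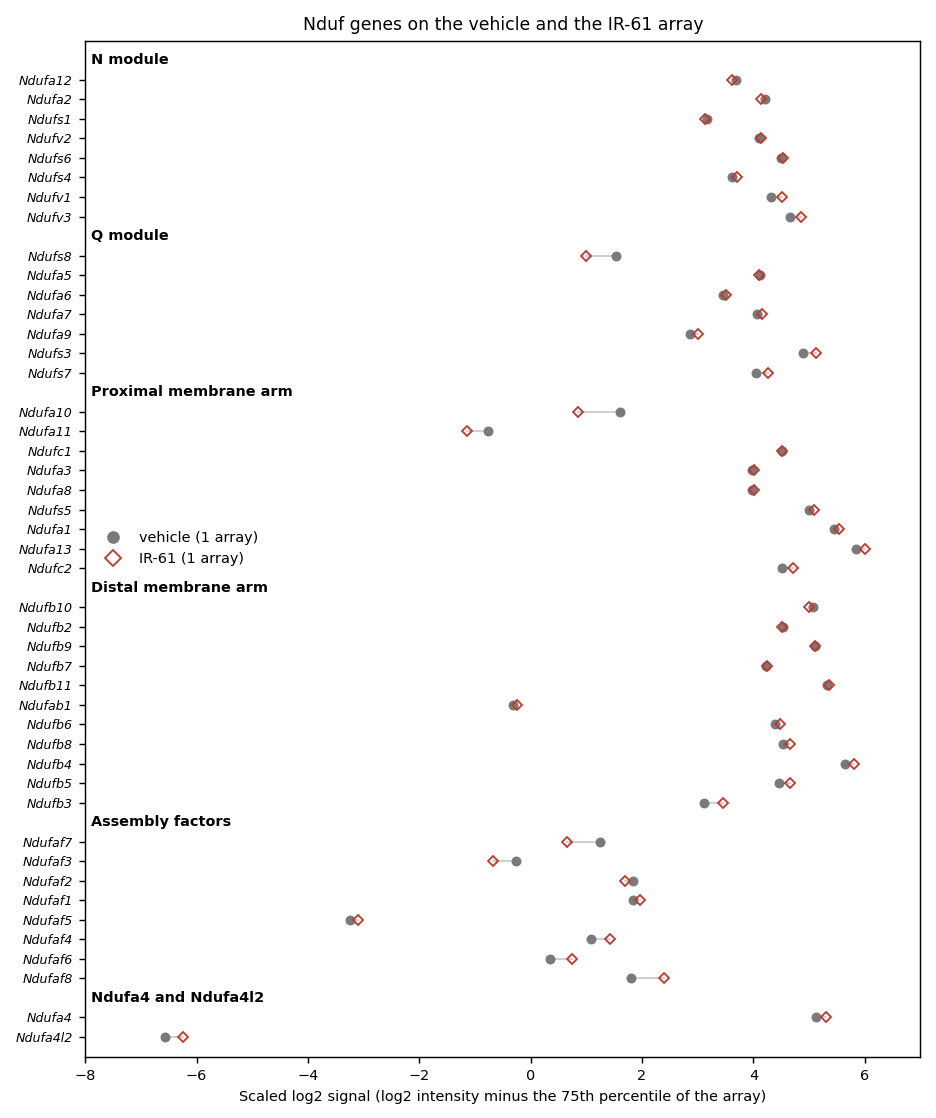
Scaled log2 signal of 45 Nduf genes on the vehicle array (filled circles) and the IR-61 array (open diamonds), 1 array each, grouped by module of complex I or role; the x axis is log2 intensity minus the 75th percentile of the array. Signals are to be compared within a gene and not between genes, since probes differ in brightness, and the pairs lie farthest apart for Ndufa10, Ndufaf8 and Ndufaf7.

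Promoter sequence offered a property of the members that the choice of genes did not use. RefSeq windows of 300 bases, 250 before and 50 from the start of the gene, matched 40 of the 46 members in the GRCm38.p6 assembly. Both strands were searched for 7 short motifs. The palindrome of nuclear respiratory factor NRF1, an activator of many genes for mitochondrial proteins, was searched as the letters GCGC, then AT, then GCGC, and was found in 3 of the 40 members (7.5%, against 1.07% of 27025 genes). With the A and T replaced by any bases (GCGC, then NN, then GCGC), a form that contains the first, it was found in 11 (27.5%, against 7%). AAGATGGCG, a motif of the factor YY1, was found in 6 (15%, against 1.64%), and CCGGAAG, the motif of ETS factors, in 6 (15%, against 9.93%). GGGCGG, the motif of SP factors, was in 21 (52.5%, against 38.2%), CCAAT in 14 (35%, against 41.1%) and TATAAA in 4 (10%, against 15.7%). The 27025 genes are all those with a window, whether or not they were measured here. The members are mostly bright, and shares among genes of like signal were not tested. A match is a run of letters and not a measured binding site.

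Members with the full NRF1 palindrome had a median log2 difference of 0.12 and those without it 0.08. The medians with and without were 0.12 and 0.08 for YY1, 0.10 and 0.08 for the ETS motif, 0.05 and 0.09 for the NRF1 form with a free middle, and 0.05 and 0.08 for TATAAA. They were 0.08 on both sides for CCAAT and for the SP motif. The members with the NRF1 palindrome were Ndufa11, lower with IR-61 after scaling, Ndufaf4, higher by its brighter probe, and Ndufaf5, near the all-gene median.

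Shown here are the 250 bases before the start of Ndufa10, the lowest member, and of Ndufaf8, the highest. Ndufa11 and Ndufaf4, which share the NRF1 palindrome, are shown too. Ndufa11 was lower with IR-61 after scaling, and Ndufaf4 was higher by its brighter probe but gave -0.15 by its second. Each sequence runs 5′ to 3′ on the strand of its gene in GRCm38.p6. Capitals mark the SP motif on the reverse strand in Ndufa10 (chr1:92473759-92474008, minus strand), the NRF1 palindrome in Ndufa11 (chr17:56717512-56717761, plus strand) and Ndufaf4 (chr4:24897833-24898082, plus strand), and CCAAT, the SP motif and, next to the start, the ETS motif in Ndufaf8 (chr11:120098684-120098933, plus strand).
Ndufa10: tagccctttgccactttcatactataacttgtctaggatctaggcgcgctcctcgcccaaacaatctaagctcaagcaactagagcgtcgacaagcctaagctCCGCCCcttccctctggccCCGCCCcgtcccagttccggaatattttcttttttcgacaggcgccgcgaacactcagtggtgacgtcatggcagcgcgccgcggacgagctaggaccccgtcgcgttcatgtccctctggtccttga
Ndufa11: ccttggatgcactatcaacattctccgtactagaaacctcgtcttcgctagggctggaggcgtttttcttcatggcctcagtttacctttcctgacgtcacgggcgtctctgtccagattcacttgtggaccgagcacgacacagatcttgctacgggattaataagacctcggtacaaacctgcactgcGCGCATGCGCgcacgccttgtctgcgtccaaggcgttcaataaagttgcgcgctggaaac
Ndufaf4: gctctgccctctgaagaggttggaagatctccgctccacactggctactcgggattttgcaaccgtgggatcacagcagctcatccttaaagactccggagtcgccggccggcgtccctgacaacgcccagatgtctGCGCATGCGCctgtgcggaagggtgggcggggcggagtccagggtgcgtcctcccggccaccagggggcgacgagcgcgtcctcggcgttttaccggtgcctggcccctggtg
Ndufaf8: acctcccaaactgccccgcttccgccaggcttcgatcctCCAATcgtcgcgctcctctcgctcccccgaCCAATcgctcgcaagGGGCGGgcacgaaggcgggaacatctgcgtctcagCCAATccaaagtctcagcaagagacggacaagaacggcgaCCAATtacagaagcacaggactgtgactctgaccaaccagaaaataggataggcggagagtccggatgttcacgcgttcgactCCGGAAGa

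In these sequences, Ndufa10 holds the SP motif at -147 and -128 from the start (first base of the match). Ndufaf8 holds CCAAT at -211, -181, -131 and -91, the SP motif at -166 and the ETS motif at -8. The palindrome lies at -60 in Ndufa11 and at -113 in Ndufaf4, and Ndufaf4 also holds the SP motif at -89 and -84, left in lower case.

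Among the nuclear core subunits, Ndufv1, Ndufv2, Ndufs1, Ndufs3 and Ndufs7 stayed near the median of all genes, while Ndufs8 was lower with IR-61. The median difference of the core subunits was 0.04. Ndufv1, which binds the flavin and takes the electrons from NADH, had a processed signal of 25141.1 with vehicle and 40363.6 with IR-61. On the scaled log2 scale these were 4.31 and 4.51, a difference of 0.20. Ndufv2 carries an iron-sulfur cluster next to Ndufv1, and its scaled signals of 4.10 and 4.14 differed by 0.04. Ndufs1, the large iron-sulfur subunit that leads electrons out of the NADH-binding tip, gave 3.16 with vehicle and 3.14 with IR-61, a difference of -0.01. All 3 of these genes of the NADH-oxidising N module thus lay within 2 SDs between spots of the all-gene median.

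Other core genes belong to the Q module, which joins the chain of clusters to ubiquinone. Ndufs8, which holds a pair of iron-sulfur clusters on the way to ubiquinone, read 3668.2 and 3554.7, a scaled difference of -0.53, and was 1.45-fold lower with IR-61. Before any scaling its log2 difference was -0.045, smaller than the expected SD between spots of 0.094, so no direction can be read without scaling. Ndufs7 and Ndufs3 lay on the opposite side. Ndufs7, an iron-sulfur subunit at the quinone site, read 20781.0 and 34123.1, a scaled difference of 0.23. Ndufs3, an early building block of the module, read 37531.8 and 61539.0, also a scaled difference of 0.23. Neither Ndufs3 nor Ndufs7 lay farther than 2 SDs between spots from the all-gene median.

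**Figure D2:**
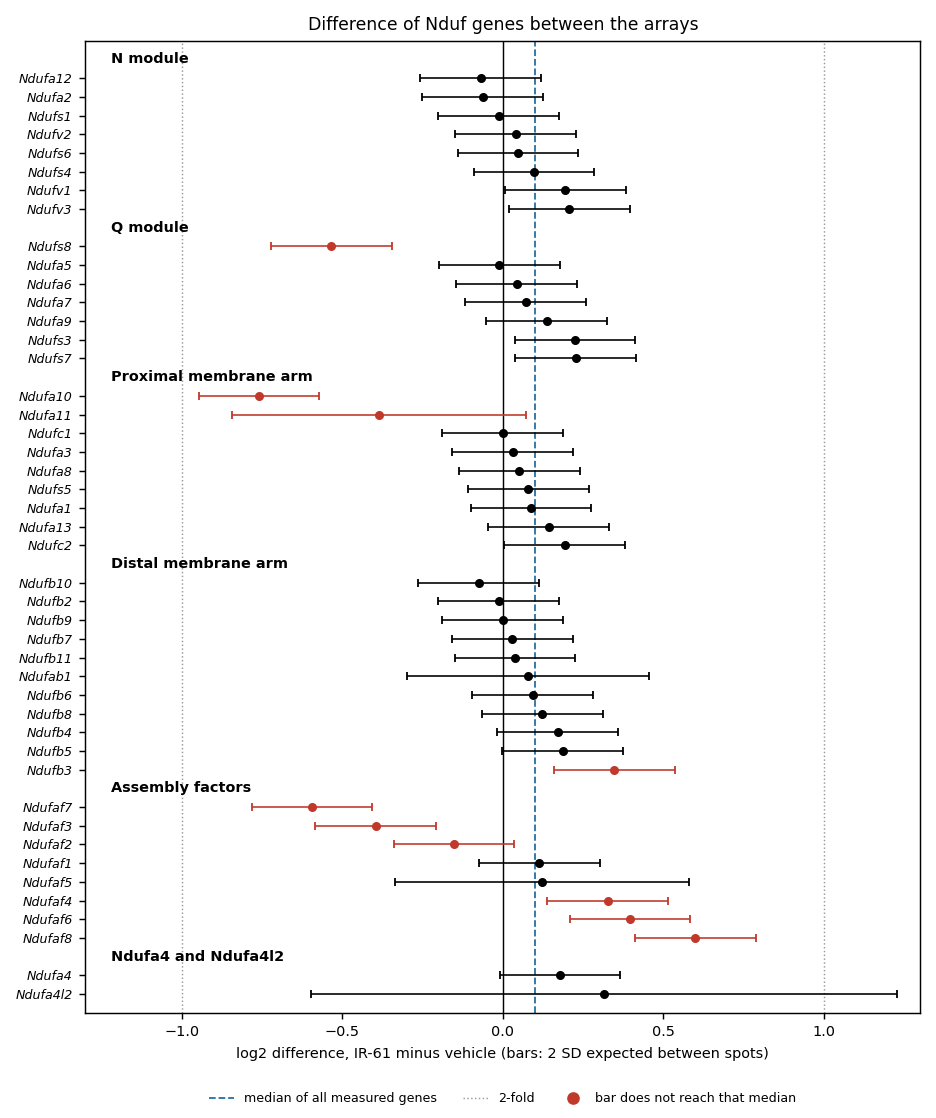
Log2 difference of scaled signal, IR-61 minus vehicle, for 45 Nduf genes, with bars of 2 SDs expected between spots (no replicate arrays). The solid line is 0, the dashed line the median of all 16885 measured genes (0.10) and the dotted lines 2-fold; the 10 genes in red, 6 to the left and 4 to the right, have bars that do not reach the dashed line.

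The supernumerary subunits, 29 genes of 30 listed, had a median difference of 0.05, and 21 of them lay below the median of all genes and 8 above it. Of these genes, 3 were farther than 2 SDs between spots from that median: Ndufa10 and Ndufa11 lower and Ndufb3 higher. This limit was passed by 37.1% of all measured genes. Ndufa10, whose promoter is printed above, is a matrix-side subunit with a fold like that of nucleoside kinases and had the largest difference of the 46 genes. Its processed signal was 3855.5 with vehicle and 3196.2 with IR-61. The scaled log2 signals were 1.61 and 0.85, a difference of -0.76, or 1.69-fold lower with IR-61. Ndufa11, a membrane subunit at the joint between the proximal arm and the rest, read 747.6 and 803.3. After scaling these were -0.76 and -1.14, a difference of -0.39, and the expected SD between spots at this dimmer signal was 0.23. Before any scaling the log2 difference of Ndufa11 was 0.104, smaller than that SD, so no direction can be read without scaling. Ndufb3, a small subunit of the distal membrane arm, read 10963.4 and 19564.0, scaled signals of 3.12 and 3.46, and was 1.27-fold higher with IR-61.

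The study also examined Ndufb8 and Ndufa9 in other assays, in bone marrow-derived macrophages. It reported marked rises of Ndufb8 mRNA by qPCR and of Ndufb8 protein with IR-61. Ndufa9 was there an antibody target for complex I on native gels, a protein reading. The array values below are RNA of RAW264.7 cells, so they differ in cell type and, for protein, in measure. Ndufb8, a distal membrane arm subunit that is lost readily when complex I is not assembled, read 29323.6 with vehicle and 44810.5 with IR-61. The scaled signals were 4.54 and 4.66, a difference of 0.12 with an expected SD between spots of 0.09, and thus 1.09-fold higher. Ndufa9, which sits beside the quinone site and binds a nicotinamide nucleotide, read 9227.1 and 14227.8, with scaled signals of 2.87 and 3.01 and a difference of 0.14. Both differences were positive, and both lay within 2 SDs between spots of the all-gene median and of 0.

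Along the complex, the median difference of a module ran from 0.04 to 0.08. The 8 N module genes had a median of 0.04 and ran from -0.07 for Ndufa12 to 0.21 for Ndufv3, an SD across genes of 0.11. The 8 Q module genes were centred on 0.06, with Ndufs8 toward the low end and Ndufa5, Ndufa6, Ndufa7 and Ndufa9 between -0.01 and 0.14. The 9 genes of the proximal membrane arm were centred on 0.05 with an SD of 0.31. Apart from Ndufa10 and Ndufa11, that arm ran from 0.00 for Ndufc1 to 0.19 for Ndufc2. The 11 genes of the distal membrane arm were centred on 0.08 with an SD of 0.12, from -0.08 for Ndufb10 to 0.35 for Ndufb3. Ndufab1, the mitochondrial acyl carrier protein counted there, also sits in the matrix arm and serves fatty acid synthesis. Its scaled signals were -0.32 and -0.24, a difference of 0.08. No N module gene was farther than 2 SDs between spots from the all-gene median, while Ndufs8 in the Q module and Ndufa10 and Ndufa11 in the proximal arm were lower by this limit and Ndufb3 in the distal arm was higher.

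The members most alike were those with differences near 0. Ndufc1 and Ndufb9 had a log2 difference of 0.00 each. Ndufb2, Ndufs1 and Ndufa5 lay at -0.01, and Ndufa3, Ndufb7, Ndufb11, Ndufa6, Ndufs6 and Ndufa8 lay between 0.03 and 0.05. Ndufa13, a membrane subunit first described as a cell death regulator, read 73014.1 with vehicle and 113110.0 with IR-61, a scaled difference of 0.14. A mean log2 signal over 10, which spans a wide range of brightness, was found in 43 members. Their differences were centred on a median of 0.07 and spread by an SD of 0.27. For the 7505 measured genes over that level the median was 0.10 and the SD 0.41. The tightness was not particular to the members, since the subunits of complexes II to V had an SD of 0.23.

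The 8 assembly factors with an Nduf name had a median of 0.12 and an SD across genes of 0.41. The SD was 0.24 over the 36 subunits of complex I and 0.44 over all measured genes. Of the 8, 3 were farther than 2 SDs between spots below the all-gene median, 3 were above it and 2 were within. By this limit 19.9% of all measured genes were lower and 17.2% higher. All of these factors but Ndufaf5 had a mean log2 signal over 10, where the limit is narrower. Of the 7505 measured genes over that level, 2216 were lower and 2098 higher beyond it, so the counts of these factors do not set them apart. Ndufaf7 is a methyltransferase that acts early in assembly. It read 3013.7 with vehicle and 2800.5 with IR-61, scaled signals of 1.25 and 0.66, and was 1.51-fold lower with IR-61. Ndufaf3 and Ndufaf4 act together in building the Q module, and their probes read in opposite directions. Ndufaf3 read 1044.7 and 1113.8, which after scaling were -0.27 and -0.67, a difference of -0.40. Ndufaf4 read 2695.3 and 4744.4, which after scaling were 1.09 and 1.42, a difference of 0.33. A second, dimmer Ndufaf4 probe gave -0.15, so the direction for Ndufaf4 depended on the probe.

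Ndufaf8 and Ndufaf5 are partners: Ndufaf5 hydroxylates an arginine of Ndufs7, and Ndufaf8 stabilises Ndufaf5. Ndufaf8, with CCAAT at 4 places in the promoter printed above, read 4407.5 with vehicle and 9367.5 with IR-61, scaled signals of 1.80 and 2.40, and was 1.52-fold higher with IR-61, the highest of the 46 members. Ndufaf5 was dim, at 134.1 and 204.6, and its scaled difference was 0.12 with an expected SD between spots of 0.23. Ndufaf6, needed early for the membrane part of assembly, read 1602.0 and 2957.4, scaled signals of 0.34 and 0.74, and was 1.32-fold higher. Ndufaf1, a member of the complex that builds the membrane arm, read 4534.9 and 6882.0, a scaled difference of 0.11. Ndufaf2, a relative of Ndufa12 that holds its place until late in assembly, read 4515.5 and 5702.1, scaled signals of 1.84 and 1.69, and a difference of -0.15.

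Ndufa4 and Ndufa4l2 carry the Nduf name without being settled parts of complex I. Ndufa4 is now assigned to cytochrome c oxidase, complex IV, and read 44251.4 and 70218.5, scaled signals of 5.13 and 5.31 and a difference of 0.18. Ndufa4l2, its relative known as a gene induced by hypoxia, read 13.4 and 23.3, where the lowest signals well above background on any probe were 12.8 with vehicle and 15 with IR-61. Its difference of 0.31 had an expected SD between spots of 0.46, so no direction can be read from it.

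Assembly factors of complex I with other names, from a list drawn up with earlier results of these data known, showed a similar spread. The 11 of 12 listed that were measured had a median difference of 0.08. Of these, 3 were farther than 2 SDs between spots below the all-gene median and 4 above it. The shares over all measured genes were 19.9% and 17.2%. All of the 11 but Tmem186 had a mean log2 signal over 10, where 2216 of 7505 measured genes were lower and 2098 higher beyond the limit. Timmdc1, which takes part in building the proximal membrane arm, was lowest at -0.40, with signals of 1556.5 and 1651.1. Nubpl, which delivers iron-sulfur clusters to complex I, was highest at 0.64, with signals of 1938.3 and 4229.7. None of the 11 differed by 2-fold, where 3.38% of all measured genes did.

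**Figure D3:**
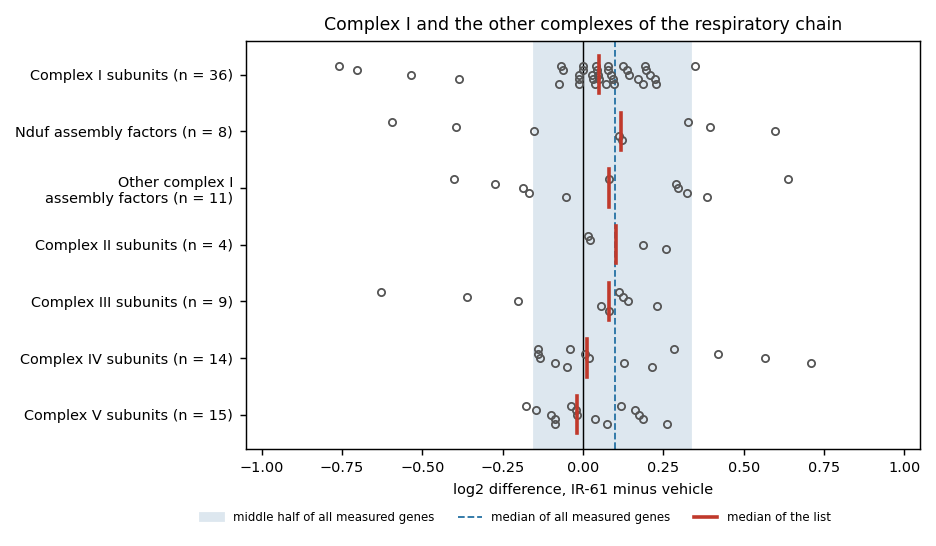
Log2 difference, IR-61 minus vehicle, of each gene of complex I, its assembly factors and complexes II to V (open circles), with the median of each list (red bar), the median of all measured genes (dashed line, 0.10) and the range from the 25th to the 75th percentile of all measured genes (shaded, -0.15 to 0.34). The list medians lie between -0.02 for complex V and 0.12 for the Nduf assembly factors.

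The nuclear subunits of complexes II to V gave the level against which complex I can be read. Over 42 of these genes the median difference was 0.03, with an SD of 0.23, and 25 lay below the all-gene median and 17 above. Over the 36 complex I subunits the median was 0.05, with an SD of 0.24, and 25 lay below and 11 above. The medians were 0.10 for 4 subunits of complex II (succinate dehydrogenase), 0.08 for 9 of complex III, 0.01 for 14 of complex IV and -0.02 for 15 of complex V (ATP synthase). Complex II ran from 0.02 for Sdhd to 0.26 for Sdhc. Complex III ran from -0.63 for Uqcrc1, a core subunit, to 0.23 for Uqcrh. Complex IV ran from -0.14 for Cox5b and Cox6a1 to 0.71 for Cox4i2, an isoform found mainly in lung. Complex V ran from -0.18 for Atp5d to 0.26 for Atpif1, the inhibitor of ATP synthase. At the low end, Uqcrc1 lay between Ndufa10 and Ndufaf7 (-0.59), and at the high end Cox4i2 lay above Ndufaf8. No gene of these complexes differed by 2-fold, a limit that 3.38% of all measured genes passed. Whether complex I differed from the other complexes could not be tested with 1 array a group.

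Of the members, 38 were read by 1 probe and 8 by 2, and the values above come from the brighter probe. The difference between the 2 probes of a gene was within 2 of its expected SDs in 5 of the 8. The exceptions were Ndufa5 (-0.01 by the brighter probe and -0.45 by the second), Ndufb11 (0.04 and -0.59) and Ndufb5 (0.19 and -0.12). Ndufb4 (0.17 and 0.29), Ndufb6 (0.09 and 0.18) and Ndufv3 (0.21 and -0.01) were among those within it. Ndufaf5 gave 0.12 and 0.73, and the expected SD of the gap between its probes was 0.51. The second probe gave the lower difference in 5 of the 8 genes and no pair differed by more than 1 on the log2 scale. All of the members past 1.5-fold were read by 1 probe, so their values had no second probe beside them.

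**Figure D4:**
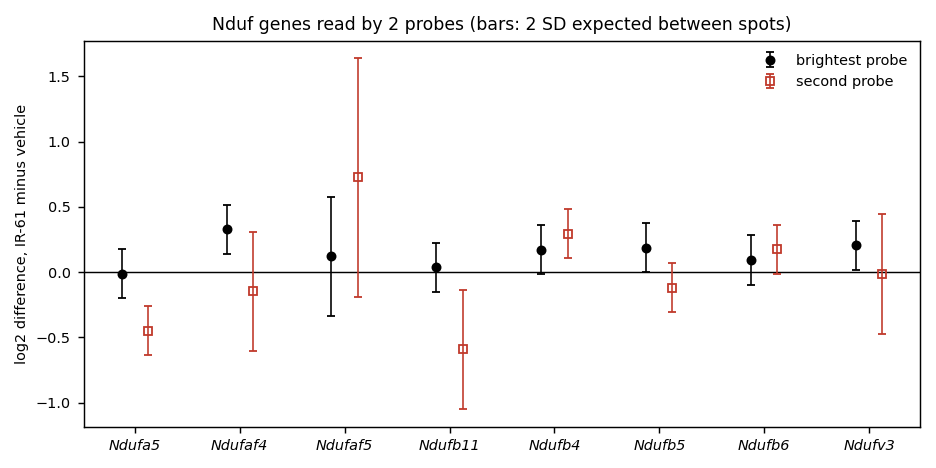
Log2 difference, IR-61 minus vehicle, by the brighter probe (filled circles) and the second probe (open squares) of the 8 Nduf genes with 2 probes, with bars of 2 SDs expected between spots. Ndufa5, Ndufaf4, Ndufb11, Ndufb5 and Ndufv3 read lower by the second probe, and all of these but Ndufa5 then lie on the other side of 0.

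Several members have near copies elsewhere in the genome. The gene table lists Ndufa11b, Ndufa12-ps, Ndufab1-ps, Ndufb4b, Ndufb4c, Ndufs5-ps and Ndufs6b, which had no matched probe, so Ndufa11, Ndufa12, Ndufab1, Ndufb4, Ndufs5 and Ndufs6 are uncertain to the extent that a probe binds the RNA of a copy, which was not tested. Ndufb1 had no matched probe either, and the subunits encoded in mitochondrial DNA were not analysed here.

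The members at the ends of the range stayed on their side of the array's median under every way of processing that was run. Several settings could not have moved them. Scalings that only add a constant to an array, and no scaling, leave a value relative to that median unchanged. Keeping outlier spots, averaging probes and dropping the dim filter could move members with a single probe only through that median. The settings able to move them were quantile normalization, loess, the deposited values and normexp. Quantile normalization and the deposited values nearly coincided (-0.845 and -0.847 for Ndufa10 relative to that median), so they do not count as separate checks. Over 11 settings, Ndufa10 lay between -0.86 and -0.69 relative to the median of all measured genes, Ndufaf7 between -0.70 and -0.55 and Ndufs8 between -0.63 and -0.54. Ndufaf8 lay between 0.48 and 0.60, Ndufaf6 between 0.30 and 0.39 and Ndufb3 between 0.22 and 0.40. Ndufb8 stayed above that median in all 11, by 0.02 to 0.18, and Ndufa9 by 0.02 to 0.21. The split of the members around the all-gene median moved: 28 below and 18 above as reported, 23 and 23 after quantile normalization, 21 and 25 after loess, and 11 and 35 after a normexp background correction.

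**Figure D5:**
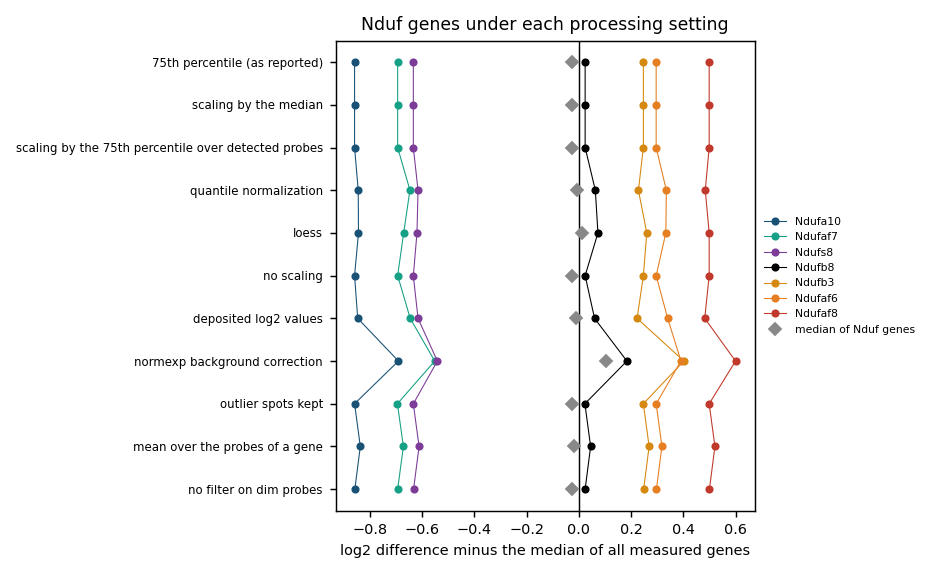
Log2 difference minus the median of all measured genes for 7 Nduf genes (circles joined by lines) and the median of the Nduf genes (grey diamonds) under 11 processing settings. Ndufa10, Ndufaf7 and Ndufs8 stay at or below -0.54 and Ndufaf8 at or above 0.48, while the median of the Nduf genes stays between -0.03 and 0.10.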

How the data were processed

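Total RNA of 1 vehicle-treated and 1 IR-61-treated culture was labelled with Cy3 and hybridised to 1 array each, on the same slide and in the same scan. The deposited scanner files hold processed signals, an intensity per spot that Agilent Feature Extraction (11.0.1.1 by the file header, 11.0.0.1 by the submitters' processing notes) had background-subtracted. A deposited table holds the authors' log2 values per probe, with a median of 7.15 on both arrays and quartiles alike, made by a normalization not given in the sources used here; it served as an alternative. Control and outlier spots were left out (none of the latter on Nduf probes), spots of a probe were averaged, and log2 signals were set relative to the 75th percentile of the array. Of 39429 probes, 27234 were named through RefSeq accessions. A gene took its brightest unsaturated probe. No test was possible. Alternatives were other scalings, normexp (offset 50, on median spot signals, limma 3.58.1, R 4.3.3), the mean over probes and no filter on dim probes; other steps used Python 3.11.15 with pandas 2.3.3. The code was tested on simulated data. Counts and medians cover all members, but 1 member is not reported here by itself. Full values were given for 6 core subunits, Ndufb8, Ndufa9, the 6 largest differences each way, assembly factors, and Ndufa4 with its relatives; of each other list, the lowest and highest. Members and lists were chosen with earlier results of these data known.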

Additional observations from a re-analysis of the deposited data

How the results depend on the processing

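No Nduf gene passed 2-fold under any alternative but no scaling, where 1 did (Ndufaf8); 4 passed 1.5-fold. Without scaling, the brighter IR-61 array moved every value up: the median of all measured genes became 0.59 and those of the lists became 0.56 for the Nduf genes, 0.54 for complex I subunits, 0.53 for core and 0.54 for supernumerary subunits, 0.61 for Nduf assembly factors, 0.53, 0.55, 0.54 and 0.57 for the N module, Q module, proximal and distal membrane arm, 0.57 for other assembly factors, and 0.59, 0.57, 0.50 and 0.47 for complexes II, III, IV and V. Among the members that then turned positive were Ndufaf3 (0.092), Ndufa11 (0.104) and Ndufaf2 (0.337), each still below the all-gene median. After normexp, the other assembly factors had a median of 0.22 and complex II 0.22. Members that changed sign included Ndufb10 (0.11), Ndufa4l2 (-0.26) and Ndufaf5 (-0.047), besides some near 0. With the mean over probes, complex II had -0.049, and 6 Nduf genes moved, Ndufb11 to -0.28, Ndufa5 to -0.23 and Ndufaf4 to 0.09 among them. Over all genes, 235 were lower and 336 higher by 2-fold as reported, 295 and 249 after scaling by the median, 279 and 257 after quantile normalization, 279 and 255 after loess, 281 and 266 in the deposited log2 values, 149 and 124 after normexp, 72 and 2156 without scaling, and 440 and 921 without the filter on dim probes. No paired analysis was possible because the arrays, which share the number 1, make a single pair and leave no spread between pairs. Dim probes limit Ndufa4l2 and Ndufaf5, whose expected SDs between spots exceed their differences.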
